A study of Homo sapiens with 12 samples.

Results

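The sympathoadrenal lineage transcription factors described here were 8 genes, PHOX2A, HAND1, HAND2, GATA2, GATA3, ISL1, TBX2 and INSM1, taken by gene symbol as core regulators of adrenergic neuroblastoma identity. They were 8 of the 20046 genes named on the array and were read by 9 of its 47321 probes, with 2 probes for HAND2 and 1 for each of the others. Messenger RNA was measured in SH-SY5Y cells, a human neuroblastoma line of sympathoadrenal origin, on 12 single-colour Illumina bead arrays. A control siRNA was transfected into 4 samples and an siRNA against SETD1A into 8, with siRNA s18789 in 4 and s18790 in the other 4. All cells were harvested 96 hours after transfection and carried no other treatment named in the labels. SETD1A encodes a histone H3 lysine methyltransferase, and the question addressed was how the lineage factors stood after its knockdown. All samples came from the same line, and the labels do not give the culture behind each sample. The p-values therefore measure a spread between samples that may be technical.

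Adrenergic neuroblastoma cells resemble the neuroblasts that form sympathetic ganglia and the adrenal medulla. Their identity is held by a circuit of transcription factors that bind each other's regulatory regions and drive genes for noradrenaline synthesis and storage. In mouse and chick embryos, BMP signals from the dorsal aorta start this programme in neural crest cells, in which PHOX2A, HAND2, GATA2, GATA3 and ISL1 take part.

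RefSeq promoter windows (GRCh38.p14, from 250 bases before to 50 after a start site) were matched to 6 of the 8 factors, giving 12 windows. The windows of HAND1 and HAND2 are shown because HAND1 rose with s18790 in the results that follow and its paralog HAND2 was not called. HAND1 lies in chr5:154478178-154478477 and HAND2 in chr4:173530180-173530479, both on the minus strand, and capitals mark GATAA on either strand, the core of the motif bound by GATA factors.
HAND1: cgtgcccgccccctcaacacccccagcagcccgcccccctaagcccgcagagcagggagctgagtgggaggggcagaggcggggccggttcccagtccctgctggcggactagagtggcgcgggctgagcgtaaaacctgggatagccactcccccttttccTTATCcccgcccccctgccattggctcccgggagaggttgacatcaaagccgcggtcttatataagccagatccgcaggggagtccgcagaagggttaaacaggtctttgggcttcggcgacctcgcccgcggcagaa
HAND2: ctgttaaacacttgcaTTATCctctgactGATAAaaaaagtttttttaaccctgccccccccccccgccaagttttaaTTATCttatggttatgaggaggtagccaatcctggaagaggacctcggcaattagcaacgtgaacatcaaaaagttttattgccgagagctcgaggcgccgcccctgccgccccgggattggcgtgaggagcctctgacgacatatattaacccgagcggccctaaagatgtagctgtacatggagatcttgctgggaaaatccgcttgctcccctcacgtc
GATAA occurred once in the HAND1 window, at base -88 from the start site, and 3 times in the HAND2 window, at -234, -221 and -172. At least 1 GATAA on either strand was present in 22.7% of all 35116 windows of that length. The E-box CANNTG, bound by basic helix-loop-helix factors such as the HAND proteins, was absent from the letters of the HAND1 window and present 1 time in that of HAND2, against 68.7% of all windows. GATAA was found 2 times in the ISL1 window, in 1 of the 6 windows of GATA3, and in neither the 2 windows of GATA2 nor the window of PHOX2A. These matches describe the letters of the windows, and binding was not measured.

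Levels are given as log2 of background-corrected intensity, quantile-normalised between arrays on the log2 scale. Differences between levels are given as log2 differences with the standard error (SE) of the fit. The detection p-value of a probe tells how many negative control beads were no dimmer than it. Only the 15922 probes with a detection p under 0.01 on 4 or more arrays of the 12 were tested. It is termed called where its p-value from limma, adjusted by the Benjamini-Hochberg method over all of them, was under 0.05. Levels of different probes are not compared, since probes differ in brightness for the same amount of RNA.

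The arrays detected 29.1 to 33.6% of their probes. Control replicate 4 and s18790 replicate 2 lay apart: on the first principal component, which held 60.6% of the variance, they scored 26.8 and 83.7, against -23.7 to 12.7 for the other 10 arrays. The SETD1A probe fell to 64.6% of control with s18790 (log2 difference -0.63, limma adjusted p = 0.0276). With s18789 it stood at 74.1% of control, a difference that was not called (log2 difference -0.43, limma adjusted p = 0.616). In both comparisons the 4 knockdown arrays lay below the 4 control arrays, at an exact two-sided permutation p of 0.0286, the smallest that 4 against 4 arrays allow (0.0429 after adjustment over 3 comparisons). That call for s18790 did not survive leaving out control replicate 1 (adjusted p = 0.0507), control replicate 2 (0.0683), s18790 replicate 1 (0.0730) or s18790 replicate 4 (0.0660).

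Of 5 adrenergic markers outside the 8 factors, DBH, DDC, CHGA and CHGB were above background on all 12 arrays, and both probes of TH, tyrosine hydroxylase, on 0. No array detected any of the 4 Schwann cell precursor markers or 4 endothelial markers on the array, and among 4 blood markers the array detected CD34 alone, on 2 of 12. Of 10 mesenchymal neuroblastoma markers, 7 were measured and PRRX1, FN1 and CD44 were below background throughout. In bulk RNA, fewer cells of a type and less RNA per cell cannot be told apart.

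**Figure D1:**
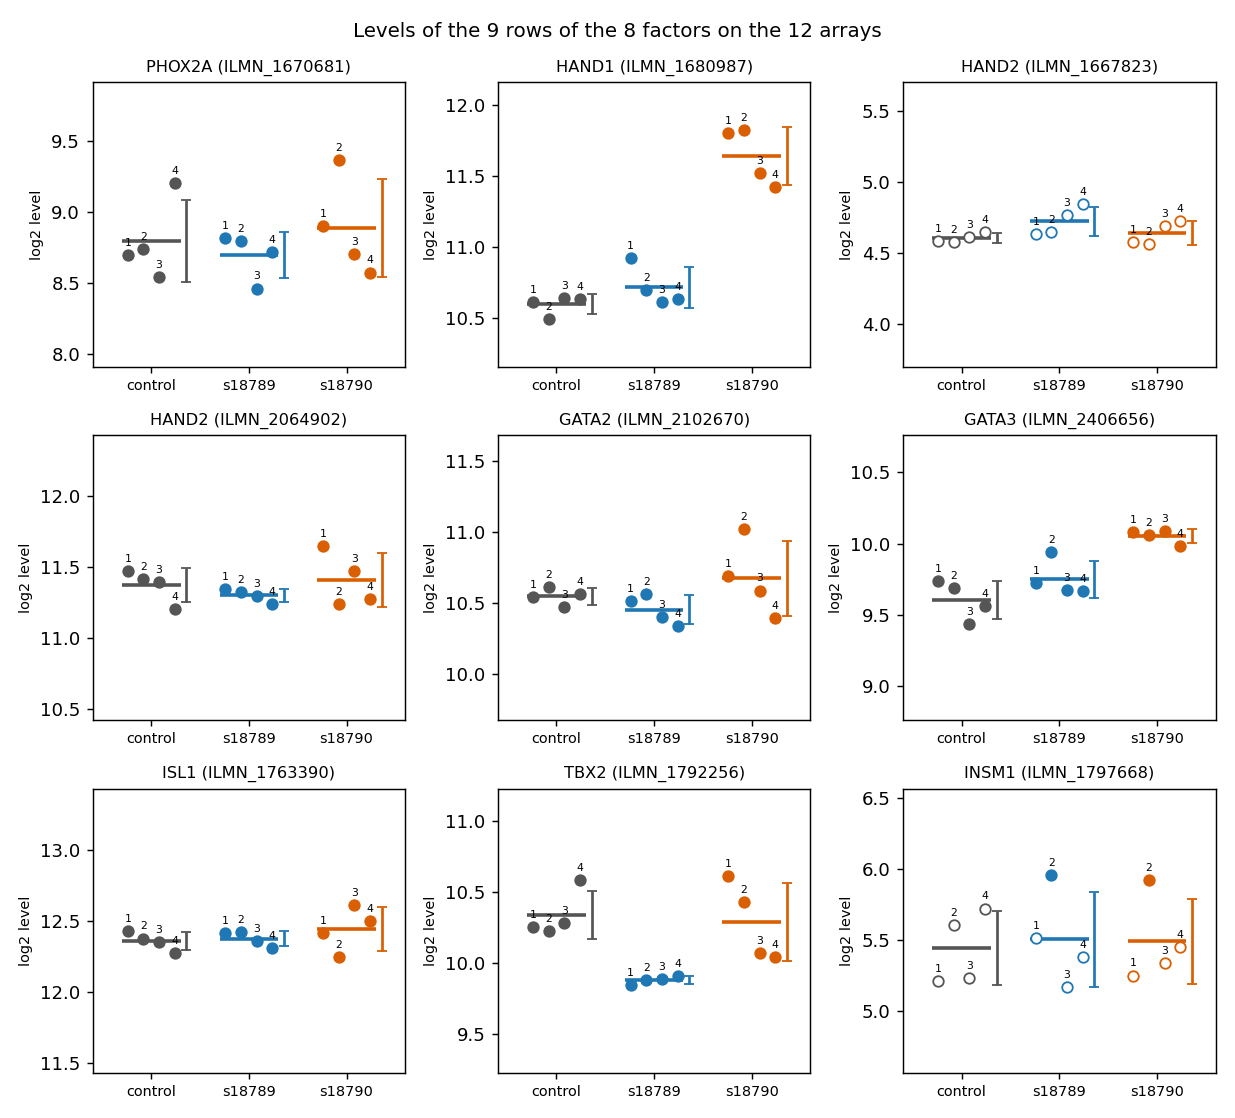
Log2 level of each of the 9 probes of the 8 factors (vertical axis) on each array of the 3 siRNA groups; numbers are replicates, horizontal lines group means, bars the SD of 4 arrays, and open points have a detection p of 0.01 or more. HAND1 levels with s18790 lie between 11.42 and 11.83, above all 8 other arrays, and TBX2 levels with s18789 lie between 9.84 and 9.91, below all 8 others.

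HAND1, a basic helix-loop-helix factor of heart, placenta and sympathetic precursors, was higher with s18790 than in either other group. Its control levels were 10.62, 10.49, 10.64 and 10.64 in replicates 1 to 4. With s18789 they were 10.93, 10.70, 10.61 and 10.64, and with s18790 they were 11.81, 11.83, 11.52 and 11.42. All 4 s18790 arrays exceeded all 8 others, while s18789 and control arrays overlapped. The deposited intensities before normalisation showed the same separation, at 1353.2 to 1756.3 in controls, 1735.7 to 2080.1 with s18789 and 2093.1 to 4285 with s18790. The s18790 difference from control was 1.05 ± 0.12 (SE, 4 arrays against 4), which is 2.07-fold higher (95% interval 1.73 to 2.47, limma adjusted p = 0.000341). HAND1 was also 1.90-fold higher with s18790 than with s18789 (log2 difference 0.93 ± 0.12, limma adjusted p = 0.00174). The difference of s18789 from control was 0.12, with a 95% interval of -0.14 to 0.38 (limma adjusted p = 0.9999). Over 22 alternatives in processing and in the arrays used, the s18790 difference from control stayed called at 0.99 to 1.12 and that from s18789 at 0.81 to 1.001.

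HAND2, the paralog required in mouse for noradrenergic differentiation of sympathetic neurons, was not called in any comparison. Its measured probe gave 11.48, 11.42, 11.40 and 11.20 in controls, 11.34, 11.33, 11.30 and 11.24 with s18789, and 11.65, 11.24, 11.47 and 11.27 with s18790. The 3 groups overlapped. The s18790 difference from control was 0.04, with a 95% interval of -0.20 to 0.27 (limma adjusted p = 0.866), and that of s18789 was -0.07, with an interval of -0.31 to 0.17. The second HAND2 probe was below background on all 12 arrays and could not be read against the first. The log2 ratio of the HAND1 probe to the HAND2 probe on the same array was a measure chosen after the values were seen, so its tests are no independent evidence. It moved by 1.01 from control to s18790 (exact two-sided permutation p = 0.0286, the smallest possible, or 0.0572 after adjustment over 6 such tests) and by 0.19 from control to s18789 (exact permutation p = 0.114, adjusted 0.137). Between the siRNAs it differed by 0.82 (exact permutation p = 0.0286, adjusted 0.0572), so none of the 3 passed after adjustment. On each array the ratio lay between -0.92 and -0.56 in controls and between 0.05 and 0.58 with s18790, and only its change, not its sign, can be read.

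GATA3, a zinc finger factor needed in mouse for the maintenance and noradrenaline synthesis of sympathetic neurons, was higher with s18790 by a smaller margin. Its levels were 9.73, 9.69, 9.43 and 9.56 in controls and 9.72, 9.94, 9.67 and 9.66 with s18789. With s18790 they were 10.08, 10.06, 10.09 and 9.98, and those 4 arrays lay above all 8 others. The difference from control was 0.45 ± 0.10, or 1.36-fold (95% interval 1.17 to 1.59, limma adjusted p = 0.0196). Before normalisation the groups overlapped, since s18790 replicate 4 had an intensity of 764.5 and controls ran from 736.1 to 944.6. The call was lost when arrays were scaled to a common median (difference 0.40, adjusted p = 0.156), when the s18789 arrays were left out of the fit (0.0719), and without control replicate 3 (0.0695) or s18790 replicate 1 (0.0547). The s18789 difference from control was 0.15 (95% interval -0.08 to 0.37) and was not called. GATA3 did not overlap between the siRNAs either, yet that difference of 0.30 (95% interval 0.08 to 0.52) was not called (limma adjusted p = 0.112).

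GATA2, the GATA3 paralog that takes part in sympathetic neuron differentiation in chick, overlapped in all 3 groups. Its levels were 10.54, 10.61, 10.47 and 10.56 in controls, 10.51, 10.56, 10.40 and 10.33 with s18789, and 10.69, 11.02, 10.59 and 10.39 with s18790. The highest value, 11.02, was on s18790 replicate 2, 1 of the 2 arrays that lay apart. The s18790 difference from control was 0.13 (95% interval -0.15 to 0.40, limma adjusted p = 0.569) and 0.01 without s18790 replicate 2. With s18789 it was -0.09, with an interval of -0.37 to 0.18. The log2 ratio of the GATA3 probe to the GATA2 probe, chosen and tested like that of the HAND probes, moved by 0.24 with s18789 (exact permutation p = 0.0286, adjusted 0.0572) and by 0.32 with s18790 (exact permutation p = 0.0857, adjusted 0.129), and differed by 0.08 between the siRNAs (exact permutation p = 0.514).

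PHOX2A, a paired-like homeodomain factor that binds the promoter of the dopamine beta-hydroxylase gene, was not called in any comparison. Its levels were 8.70, 8.73, 8.54 and 9.20 in controls, 8.82, 8.79, 8.46 and 8.71 with s18789, and 8.90, 9.36, 8.70 and 8.57 with s18790. The top control and top s18790 value were on the 2 arrays that lay apart, and the groups overlapped. The s18790 difference from control was 0.09 (95% interval -0.30 to 0.48, limma adjusted p = 0.793). The s18789 difference was -0.10 (-0.49 to 0.30).

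ISL1, a LIM homeodomain factor of sympathetic and motor neurons, had the smallest spread within groups of the 7 measured factors. Its levels were 12.43, 12.38, 12.35 and 12.28 in controls, 12.42, 12.42, 12.36 and 12.31 with s18789, and 12.42, 12.25, 12.62 and 12.50 with s18790. The groups overlapped. The interval of the s18790 difference ran from -0.13 to 0.30 (difference 0.09, limma adjusted p = 0.622) and that of s18789 from -0.20 to 0.23 (difference 0.02).

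TBX2, a T-box repressor that restrains senescence genes and belongs to the adrenergic circuit, was the factor whose groups separated in the s18789 samples. Its levels were 10.26, 10.22, 10.28 and 10.58 in controls and 9.84, 9.88, 9.89 and 9.91 with s18789. With s18790 they were 10.61, 10.43, 10.07 and 10.04. All 4 s18789 arrays lay below all 8 others, whereas s18790 and control arrays overlapped. TBX2 in the s18789 samples stood at 72.9% of its control level, a log2 difference of -0.46 (95% interval -0.75 to -0.16), which did not pass the test (unadjusted p = 0.00549, limma adjusted p = 0.438). The adjusted p ran from 0.0673 to 0.988 over the alternatives, so the difference was not called under any of the 22. The difference of s18790 from s18789 was 0.41 (0.11 to 0.70, limma adjusted p = 0.109), and that of s18790 from control was -0.05 (-0.34 to 0.25).

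INSM1, a zinc finger repressor that promotes neuroendocrine differentiation, was at the edge of detection. It was above background on 2 of 12 arrays, s18789 replicate 2 and s18790 replicate 2, with intensities of 76.7 to 106 over all arrays. It entered no test.

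**Figure D2:**
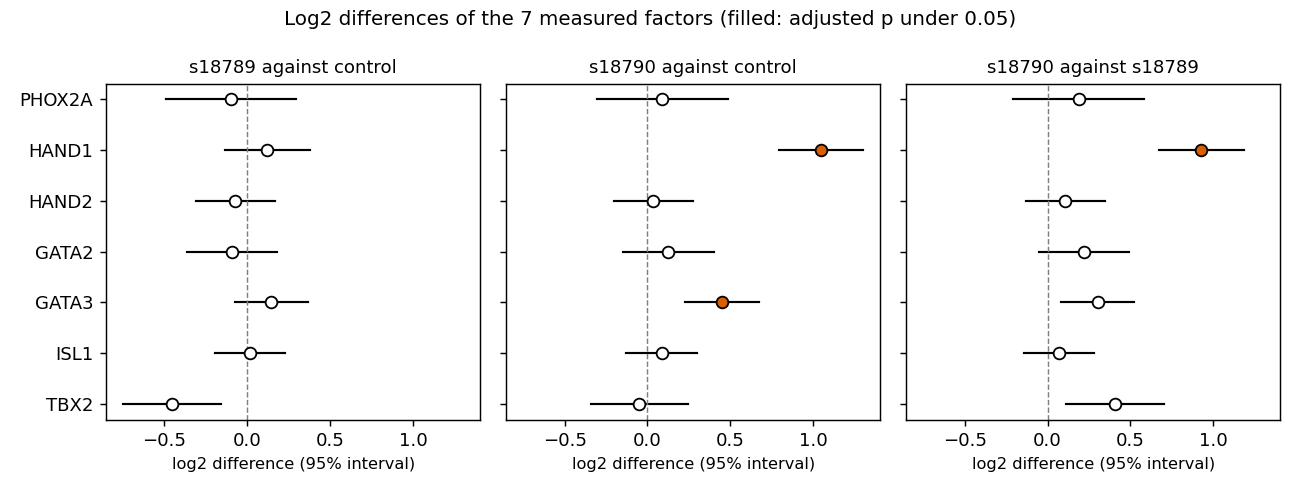
Log2 difference (horizontal axis) of each of the 7 measured factors in 3 comparisons; points are differences of means of 4 arrays, lines 95% intervals, and filled points have an adjusted p under 0.05. HAND1 stands at 1.05 against control and 0.93 against s18789 in the s18790 samples, GATA3 at 0.45 against control, and no factor is filled in the s18789 panel.

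Counted over the 7 measured factors, s18789 moved 0 past the limma test against control, and 1, TBX2, had an unadjusted p under 0.05, as did 6.02% of all tested probes. In that comparison 0.0942% of all tested probes were called, 0.0565% higher and 0.0377% lower. The groups did not overlap for 1 of the 7 factors, against 7.08% of all probes, and the median difference was -0.07. With s18790, HAND1 and GATA3 rose, 0 fell and 5 were not called, where 8.32% of all probes were called. The groups did not overlap for 2 of 7, against 13.3% of all probes, and the median difference was 0.09. Between the siRNAs, HAND1 was called and 6 were not, where 4.2% of all probes were called. HAND1, GATA3 and TBX2 did not overlap there, 3 of 7 against 14% of all probes, and all 7 differences were positive with a median of 0.22. The median over all probes was about 0.01 in each comparison. The comparisons with control share the same 4 control arrays and that between the siRNAs shares arrays with both.

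The spread within groups differed among the factors. The residual SD was 0.28 for PHOX2A and 0.10 for ISL1, with 0.19 for TBX2, 0.17 for GATA2, 0.15 for HAND1, 0.13 for HAND2 and 0.11 for GATA3. The median over all tested probes was 0.22, and 6 of the 7 factors lay below it. Array by array, the 2 that lay apart moved the factors in different directions. Control replicate 4 and s18790 replicate 2 exceeded the other 3 arrays of their group by 0.55 and 0.64 for PHOX2A, and by 0.48 and 0.54 for the SETD1A probe. For HAND2 they stood at -0.23 and -0.22 from the mean of those arrays, and for ISL1 at -0.11 and -0.26, below each of them. For GATA3 they stood at -0.06 and 0.01, within the range of the other arrays. Without both arrays, HAND1 rose with s18790 by 0.999 (limma adjusted p = 0.000351) and GATA3 by 0.43 (limma adjusted p = 0.0210).

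**Figure D3:**
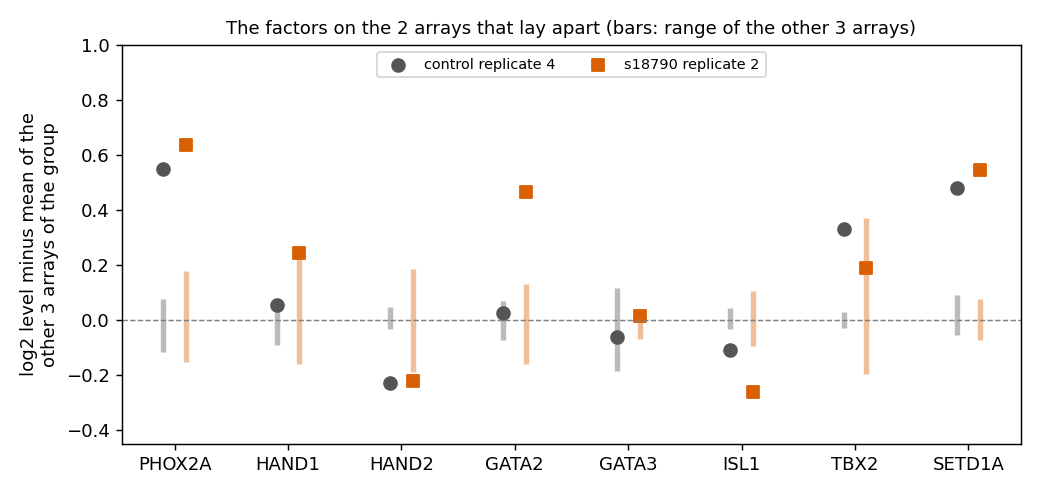
Log2 level on control replicate 4 and s18790 replicate 2 minus the mean of the other 3 arrays of the same group (vertical axis), for the 7 measured factors and SETD1A; bars span the other 3 arrays. PHOX2A and SETD1A lie above the bars on both arrays, at 0.55 and 0.64 and at 0.48 and 0.54, and HAND2 and ISL1 below them.

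The genes whose levels over the 12 arrays were most like each factor's were read by Pearson's r against 9832 other genes, as a description with no test, since the arrays share groups and the axis that set 2 of them apart. For HAND1 they were PHACTR3 (r = 0.979), GNG3 (0.977) and TACC2 (0.9752), and for GATA3 they were H2BC5 (0.914), SH2D3C (0.914) and MAGEA10 (0.912). Once group means were removed, r was 0.764, 0.865 and 0.579 for the 3 genes nearest to HAND1 and 0.648, 0.569 and 0.480 for those nearest to GATA3, so part of the likeness was the shared difference between groups. For PHOX2A they were BRF2 (0.970), GMPPA (0.960) and PIP4K2B (0.958), and for GATA2 they were PCGF1 (0.964), ZNF74 (0.943) and BACE1 (0.942). HAND2 was nearest to YWHAB (0.887), SINHCAF (0.861) and NUP50 (0.848), ISL1 to CRIPT (0.898), RNF14 (0.891) and CROT (0.874), and TBX2 to RALGDS (0.930), PRCP (0.909) and CACNA1G (0.904).

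**Figure D4:**
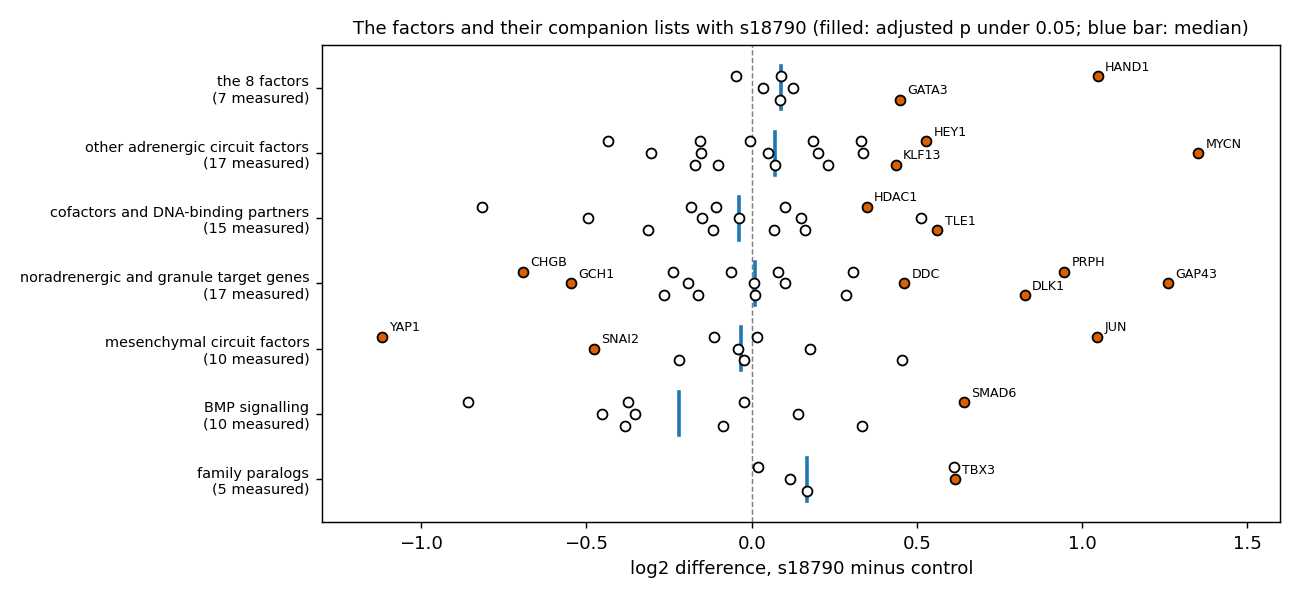
Log2 difference, s18790 minus control (horizontal axis), of each measured gene in the 8 factors and 6 companion lists; filled points have an adjusted p under 0.05 and blue bars are list medians. MYCN at 1.35 and GAP43 at 1.26 lie beyond HAND1 at 1.05, and the median of each list lies between -0.22 and 0.17.

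Among 17 measured partners of the adrenergic circuit, 3 rose with s18790, 0 fell and 14 were not called (median 0.07). Higher calls made up 4.03% of all tested probes and lower calls 4.29%. MYCN, the oncogenic MYC family factor of neuroblastoma, had levels of 6.95 ± 0.14 (SD, n = 4) in controls, 7.44 ± 0.17 with s18789 and 8.30 ± 0.27 with s18790. Its s18790 difference of 1.35 was 2.55-fold (limma adjusted p = 0.000262), and its s18789 difference of 0.48 was not called (limma adjusted p = 0.422). These values came from the measured MYCN probe. The other MYCN probe was below background on every array and could not be read against it. HEY1, a Notch target repressor, rose by 0.53 (limma adjusted p = 0.0146) and KLF13, a Krüppel-like factor, by 0.44 (limma adjusted p = 0.0464). The HEY1 call was lost in 3 alternatives, among them leaving out control replicate 1 (adjusted p = 0.0560), and the KLF13 call in 14, with adjusted p up to 0.215. KLF13 was not called without control replicate 1 (0.146), 2 (0.113) or 3 (0.108), without s18790 replicate 1 (0.102), 2 (0.0642) or 4 (0.0690), or without any of the s18789 arrays (0.0537 to 0.0623). Of 15 measured cofactors, 2 rose and 0 fell (median -0.04): HDAC1, a histone deacetylase, by 0.35 (limma adjusted p = 0.0314) and TLE1, a Groucho corepressor, by 0.56 (limma adjusted p = 0.0305). Each of those calls was lost in 7 alternatives, with adjusted p up to 0.230 for HDAC1 and 0.146 for TLE1. Leaving out control replicate 1, 2 or 3 gave 0.0708, 0.105 and 0.0843 for HDAC1 and 0.0883, 0.0942 and 0.0993 for TLE1, and leaving out s18790 replicate 1 gave 0.0638 for HDAC1.

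Of 17 measured noradrenergic and granule genes, which the circuit drives, 4 rose with s18790, 2 fell and 11 were not called (median 0.01). Of all tested probes, 4.03% were called higher and 4.29% lower. Of the 4, GAP43, a growth cone protein, rose by 1.26 (limma adjusted p = 0.000262) and PRPH, a peripheral neuron intermediate filament, by 0.95 (limma adjusted p = 0.00550). DLK1, a surface protein of chromaffin cells, rose by 0.83 (limma adjusted p = 0.00159) and DDC, which makes dopamine, by 0.46 (limma adjusted p = 0.0136). The granule protein CHGB fell by 0.69 (limma adjusted p = 0.00159) and GCH1, which makes the cofactor of tyrosine hydroxylase, fell by 0.55 (limma adjusted p = 0.00872). The DDC call was lost in 4 alternatives, among them without control replicate 1 (adjusted p = 0.0525) or 3 (0.0518), and the GCH1 call in 1. The summed level of the adrenergic markers, which include CHGB and DDC, was 16544.5 to 17132.1 in controls, 15163 to 17167.6 with s18789 and 13229.7 to 15259 with s18790. Bright probes weigh most in this sum. DBH, the brightest at a mean of 13.23 in controls, stood at -0.24 with s18790 and was not called (limma adjusted p = 0.185). The part of the sum in these results was not tested. With s18789, GAP43 was the 1 gene of the list called (0.84, limma adjusted p = 0.0393). Over all tested probes, 0.0565% were called higher in that comparison and 0.0377% lower. The GAP43 call was lost in 13 of 22 alternatives, with adjusted p up to 0.216. It was lost without control replicate 1 (0.198), 2 (0.216) or 3 (0.204), without any of the s18789 arrays (0.129 to 0.197), and without s18790 replicate 1 (0.0849), 3 (0.0545) or 4 (0.0719).

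The mesenchymal circuit opposes the adrenergic one in neuroblastoma, and of its 10 measured factors 1 rose, 2 fell and 7 were not called with s18790 (median -0.03). The shares over all tested probes were 4.03% called higher and 4.29% lower. JUN, a subunit of the AP-1 factor, rose by 1.04 with s18790 (limma adjusted p = 0.00339), and with s18789 it stood at 0.48 and was not called (limma adjusted p = 0.622). YAP1, the Hippo pathway coactivator, fell by 1.12 and was above background on 1 of 4 s18790 arrays (limma adjusted p = 0.000863). SNAI2, a repressor of epithelial genes, fell by 0.48 (limma adjusted p = 0.0165), a call lost without control replicate 3 (adjusted p = 0.0603). With s18789 SNAI2 stood at -0.54 and was not called (limma adjusted p = 0.124). The siRNAs differed by 0.06, which was not called (limma adjusted p = 0.761), so no drop particular to s18790 was shown. Of 5 measured mesenchymal surface and matrix genes, COL1A1 rose by 0.64 (limma adjusted p = 0.0141), COL3A1 fell by 0.86 (limma adjusted p = 0.00356) and so did SNAI2, which both lists hold. The COL1A1 call was lost without control replicate 1 (adjusted p = 0.0528). The summed level of all 10 mesenchymal markers was 9844 to 10379 in controls, 8370 to 9701 with s18789 and 8878 to 10408 with s18790. Bright probes weigh most in this sum too, and VIM and TWIST1 were the brightest, at means of 12.46 and 11.83 in controls.

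In the BMP pathway, which starts the lineage programme, 1 of 10 measured genes rose with s18790 and 0 fell (median -0.22), where 4.03% of all tested probes were called higher and 4.29% lower. The gene that rose was SMAD6, an inhibitor of BMP signalling, by 0.64 (limma adjusted p = 0.00464). Among 5 measured paralogs of the factors, TBX3, the closest relative of TBX2, rose by 0.61 (limma adjusted p = 0.00307) and 4 were not called (median 0.17). GATA4 stood at 0.61 and was not called (limma adjusted p = 0.0626). Under median scaling neither SMAD6 (adjusted p = 0.0578) nor TBX3 (0.0545) was called.

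In the s18789 samples limma called no gene of these lists other than GAP43, where 0.0942% of all tested probes were called. An unadjusted p under 0.05 was reached there by 2 of 17 adrenergic partners, 1 of 15 cofactors, 5 of 17 noradrenergic and granule genes, 2 of 10 mesenchymal factors, 1 of 10 BMP genes, 0 of 5 paralogs and 1 of 5 mesenchymal surface and matrix genes, against 6.02% of all tested probes.

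Between the siRNAs, higher calls made up 2.34% and lower calls 1.85% of all probes. Of the adrenergic partners, MYCN (0.87, limma adjusted p = 0.00670), HEY1 (0.65), KLF13 (0.60) and LMO1 (0.54) were higher with s18790 than with s18789. SMAD6 (0.89, limma adjusted p = 0.00161) and TBX3 (0.73, limma adjusted p = 0.00246) were higher too, as was PRPH by 1.25, a gene above background on 1 of 4 s18789 arrays. Lower with s18790 than with s18789 were YAP1 (-0.99, limma adjusted p = 0.00336), GCH1 (-0.63, limma adjusted p = 0.00733), CHGB (-0.52, limma adjusted p = 0.0140) and NPY (-0.43, limma adjusted p = 0.0167). Against control, NPY stood at 0.08 with s18790 (limma adjusted p = 0.601) and at 0.51 with s18789 (limma adjusted p = 0.0523), neither called. GREM1, a BMP antagonist above background on 0 of 4 s18790 arrays, was at least 1.05-fold lower, since its level there is only a bound. SLC18A1 (0.51), the vesicular monoamine transporter of chromaffin cells, HDAC1 (0.36) and COL3A1 (-0.58) were also called. The calls of GREM1, COL3A1 and HDAC1 were lost in 15, 13 and 12 alternatives, with adjusted p up to 0.126, 0.123 and 0.371, among them without any of the s18789 arrays. Without s18789 replicate 3 or 4, adjusted p was 0.0733 and 0.0698 for KLF13, 0.0532 and 0.0575 for LMO1, 0.0581 and 0.0633 for NPY, and 0.1004 and 0.0857 for SLC18A1. Without s18790 replicate 1 it was 0.0559 for KLF13, 0.0515 for LMO1 and 0.0835 for SLC18A1. Without s18789 replicate 2 it was 0.0504 for CHGB and 0.0557 for SLC18A1, and without s18789 replicate 4 it was 0.0535 for CHGB. HEY1 lost its call under median scaling alone (adjusted p = 0.108).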

How the data were processed

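The authors deposited a mean bead intensity for each of 47321 probes on 12 arrays, not normalised between arrays as the values show, and beside each intensity a detection p-value per the file headers. GenomeStudio is named in the submitters' processing notes. A second deposited table holds log2 values, for which no transform is given in the sources used here. It served as an alternative. Gene symbols came from the platform annotation, and 30113 probes had 1 symbol, 8 several and 17200 none.

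Intensities were background-corrected by the normal-exponential model through the detection p-values, with an offset of 16, then put on the log2 scale and quantile-normalised. A linear model over all 12 arrays with a mean per group (9 residual degrees of freedom) was fitted in limma 3.58.1 under R 4.3.3 across 15922 probes and was tested on simulated data. The number of arrays limits the precision. The factors and lists were chosen with earlier results of these data known. Genes were named where they were factors, SETD1A, MYCN or JUN, the 3 most correlated genes per factor, or called list members, at most 6 per list and comparison, with 1 probe per gene, that with the highest mean. GATA4, HAND2-AS1 and the ratios of HAND1 to HAND2 and GATA3 to GATA2 were added after their values were seen.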

Additional observations from a re-analysis of the deposited data

Results flagged for a closer look

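Levels of the 9 probes and of SETD1A, in 30 groups of 4 arrays, were examined for a single array far from the other 3, and 2 such gaps were found, where chance gives about 1 in 20 groups. HAND1 on control replicate 2 was 10.49, against 10.62 to 10.64 on the other control arrays. TBX2 on control replicate 4 was 10.58, against 10.22 to 10.28, and without that array the s18789 difference from control was -0.37 in place of -0.46.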

How the results depend on the processing

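HAND1 kept its calls against control and against s18789 under all 22 alternatives. For the factors and SETD1A, 502 results kept direction and call, 11 lost the call, 1 gained it and 14 turned direction, each of the 14 uncalled. Some alternatives could change the call but not the difference, so direction was fixed in advance there. These were the detection filters, the groups compared alone, the replicate block, and leaving out an array of the group not compared. The s18789 differences turned to 0.056 for HAND2 and 0.019 for GATA2 under median scaling, to 0.038 for PHOX2A without both arrays that lay apart, and to -0.0041 (array weights) and -0.011 (without both) for ISL1. The ISL1 difference between the siRNAs turned to -0.017 under median scaling. With 1 array left out at a time, the s18789 difference ran from -0.18 to 0.038 for PHOX2A and -0.011 to 0.041 for ISL1, and the s18790 difference from -0.069 to 0.23 for PHOX2A, -0.045 to 0.091 for HAND2 and -0.16 to 0.034 for TBX2. The cause was not tested. Under median scaling the median over all probes was 0.08, -0.08 and -0.14 for s18789, s18790 and s18790 against s18789. It moved the split of higher to lower calls from 642 and 683 to 173 and 636 with s18790 and from 373 and 295 to 102 and 591 between the siRNAs.

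Over all probes, 15 were called with s18789, against 9 with detection required on all 12 arrays, 41 with only the groups compared, 385 with array weights, 124 without both arrays that lay apart, and 3 to 80 with 1 array left out. With s18790 1325 were called, against 809 with median scaling, 430 with only the groups compared, 3117 with array weights, 2795 without both arrays, and 583 to 1793 with 1 left out. Between the siRNAs 668 were called, against 200, 1577, 1644 and 205 to 1082 for the last 4 of these settings. Replicate numbers were the same in each group, and the labels do not say whether they pair the samples. Same-number correlations of deviations from group means ran from -0.58 to 0.58, with 6 of 12 over 0.1. Arrays of different numbers were not compared, so these values cannot decide it. A replicate block gave 3, 834 and 296 calls. SETD1A lost its s18790 call under the block (adjusted p = 0.0510), without a detection filter (0.0502) and with only the groups compared (0.0999). Its difference between the siRNAs was called without both arrays (-0.33, adjusted p = 0.0407).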

Other observations

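HAND2-AS1, the antisense RNA that shares the HAND2 locus, was looked at after its values were seen. One of its probes fell with s18790 by 0.38 (limma adjusted p = 0.0425), while HAND2 stood at 0.04. That call was lost in 11 of 22 alternatives, with adjusted p up to 0.139, among them without control replicate 1 (0.0906), 2 (0.122) or 3 (0.136), without s18790 replicate 1 (0.108) or 3 (0.0654), and without any of the s18789 arrays (0.0613 to 0.0641). Its other measured probe gave -0.61 and was not called (limma adjusted p = 0.309). With s18789 the first probe stood at -0.32 (limma adjusted p = 0.490) and the other at -0.34, neither called. Between the siRNAs the first probe differed by -0.05, so its lower level was not particular to s18790.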
